A study of Rattus norvegicus with 18 samples.

Results

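The effects of 2 knockouts on the transcriptome of splenic T-MBP cells were set side by side, gene by gene. T-MBP cells are CD4+ T cells of the Lewis rat that recognise myelin basic protein, and their transfer into rats produces experimental autoimmune encephalomyelitis, a model of multiple sclerosis. The cells were raised from an immunised rat, expanded in culture, restimulated for a short period with myelin basic protein and irradiated thymocytes, and transferred. They were sorted from the spleen on day 3 after transfer. Knockout cells carried a guide against Ets1 or Grk2 delivered with Cas9 as a ribonucleoprotein, and expressed GFP. Control cells carried a non-targeting (NT) guide, expressed BFP and had the genotype WT. Each knockout had 3 libraries and 3 NT control libraries of its own, so 12 of the 18 libraries of the series were compared, and the knockouts share no control. Fluorescent protein and a Cas9 cut differ between knockout and control cells in the same way in both experiments, and cannot be told apart from a change that the knockouts have in common. Each knockout rests on 1 guide, and edited cells were used as a pool in which unedited cells may remain.

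For each gene, the log2 ratio of the knockout to the control library of the same replicate number was taken after adding 1 to the normalized counts, which gave 3 ratios for each knockout. Their mean is called the effect. Of 32882 genes listed, 6979 had a mean normalized count of at least 10 in the Ets1 experiment and 6985 in the Grk2 experiment, and the 6490 that passed in both were compared. A gene was called where the Benjamini-Hochberg adjusted p of limma over these 6490 genes was under 0.05. Genes called in both effects were divided into those that moved alike and those that moved in opposite directions. The labels do not say that replicates are separate animals, so p-values measure the spread between these libraries only. That spread is estimated more from other genes of like expression level (prior df 28.9) than from the gene itself (residual df 4).

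ETS1 is a transcription factor of lymphocytes that binds DNA through an ETS domain at sites with a GGAA core, and it acts in T cell differentiation, survival and cytokine production. GRK2 is a kinase that phosphorylates activated G protein-coupled receptors, chemokine receptors and the sphingosine-1-phosphate receptor S1PR1 among them. Phosphorylation recruits arrestins and ends signalling from the receptor at the cell surface. The study examined the genes as regulators of T cell entry into the central nervous system.

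The guides are shown because they define the groups. They are written 5′ to 3′, and capitals mark the 10 bases at the 3′ end, which lie next to the PAM of a Cas9 target.
Ets1: tgctgctcggAGTTAACAGT
Grk2: gatttgtcagAACCTCCGAG
Non-Targeting: gctgcatgggGCGCGAATCA

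The libraries held 898092 to 1213485 reads in the Ets1 controls, 1909862 to 2248258 in Ets1-KO, 1168268 to 1314156 in the Grk2 controls and 1253869 to 1473215 in Grk2-KO. Every Ets1-KO library was thus deeper than every Ets1 control, and the part of this gap in the Ets1-KO effect was not tested. The third Ets1 control was the shallowest library and had the lowest mean correlation with the other libraries of its table (0.952, against 0.964 to 0.968). Among 10 B cell markers, Cd79a, Cd79b, Ms4a1 and Pax5 stayed at or under a normalized count of 1.11 in all libraries, whereas Ighm reached 97.2 in the third Ets1 control and 26.2 in the third Ets1-KO library. Of the CD8 T and NK cell markers, Cd8b and Ncr1 were at 0 in all 12 libraries, whereas Klrd1 was at 25.1 to 176 and Klrk1 at 39.2 to 101. Of the 11 myeloid markers in the tables, Cst3 was at 75.5 to 158 and the other 10, Csf1r and Adgre1 among them, did not exceed 4.38. Of the erythroid and platelet markers, Hba-a1 was at 25.2 to 38.7 in the Ets1 experiment and 0 to 2.07 in the Grk2 experiment. Hba-a2 was at 1.57 to 23.7 and 0 to 2.02, and Pf4 at 0 to 2.19 and 6.99 to 23.3, in the same order. The other members of that list did not exceed 5.42. The T cell genes Cd3d, Cd3e, Lck, Lat and Zap70 were between 282 and 956 in every library, whereas Cd4, which defines the cells by label, was low, at 6.45 to 21.9.

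The Grk2 transcript fell in Grk2-KO, whereas the Ets1 transcript was not called in Ets1-KO. Grk2 (ENSRNOG00000018985; Rnor_6.0 chromosome 1, 219536219 to 219544328, minus strand) was at 166, 166 and 142 in its controls and at 53.3, 64.2 and 87.3 in Grk2-KO (replicates 1, 2 and 3), without overlap, an effect of -1.22 (SE 0.14, adjusted p = 1.42e-06). In the Ets1 experiment Grk2 was at 216, 214 and 201 in controls and 214, 256 and 228 in Ets1-KO, with an effect of 0.14 (SE 0.14, adjusted p = 0.655). Ets1 (ENSRNOG00000008941; chromosome 8, 33816385 to 33879625, plus strand) was at 1965, 2038 and 2227 in its controls and 1868, 1763 and 2369.8 in Ets1-KO, an effect of -0.06 (SE 0.09, adjusted p = 0.775). Its effect in Grk2-KO was -0.13 (SE 0.09, adjusted p = 0.849). The libraries overlapped in both experiments. A 3′ library does not read the cut site, so these counts do not check the edit of Ets1.

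More genes were called in Ets1-KO than in Grk2-KO, and few were called in both. The Ets1-KO effect was called for 291 genes (4.48% of those tested), 160 higher (2.47%) and 131 lower (2.02%). The Grk2-KO effect was called for 27 genes (0.416%), 13 higher (0.2%) and 14 lower (0.216%). These lists shared 11 genes, 3.78% of the Ets1 list and 40.7% of the Grk2 list. The 11 genes comprised 6 that moved alike (0.0924%) and 5 that moved in opposite directions (0.077%). A difference between the effects, tested for itself, was called for 126 genes (1.94%). The Ets1-KO effect lay above the Grk2-KO effect in 47 of them (0.724%) and below it in 79 (1.22%). In 124 of the 126 the ratios of one knockout did not overlap those of the other. The 126 were called on these same ratios, so nothing is read from that count. For any single gene, exact permutation of 3 ratios against 3 (two-sided) can go no lower than p = 0.1. The average of the effects was called for 57 genes (0.878%). All of these calls use a variance that follows expression level. Without that trend 3 genes were called in Ets1-KO and none in Grk2-KO, in the difference or in the average, with 964, 447, 749 and 707 genes at an unadjusted p under 0.05. Both effects also share 1 variance for each gene. With each knockout fitted alone, 90 genes were called in Ets1-KO and 51 in Grk2-KO. Without the first Ets1 pair the counts were 56 and 17.

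Across all 6490 genes the effects did not run in parallel. Over genes, which are not independent replicates, Pearson's r between single ratios was 0.0896 to 0.243 within Ets1-KO, 0.0964 to 0.135 within Grk2-KO and -0.0652 to 0.0616 between the knockouts. Of the 291 genes called in Ets1-KO, 133 (45.7%) had a Grk2-KO effect of the same sign. Of the 27 called in Grk2-KO, 9 (33.3%) had an Ets1-KO effect of the same sign, and for 16 of the 27 (59.3%) the difference between the knockouts was called.

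**Figure D1:**
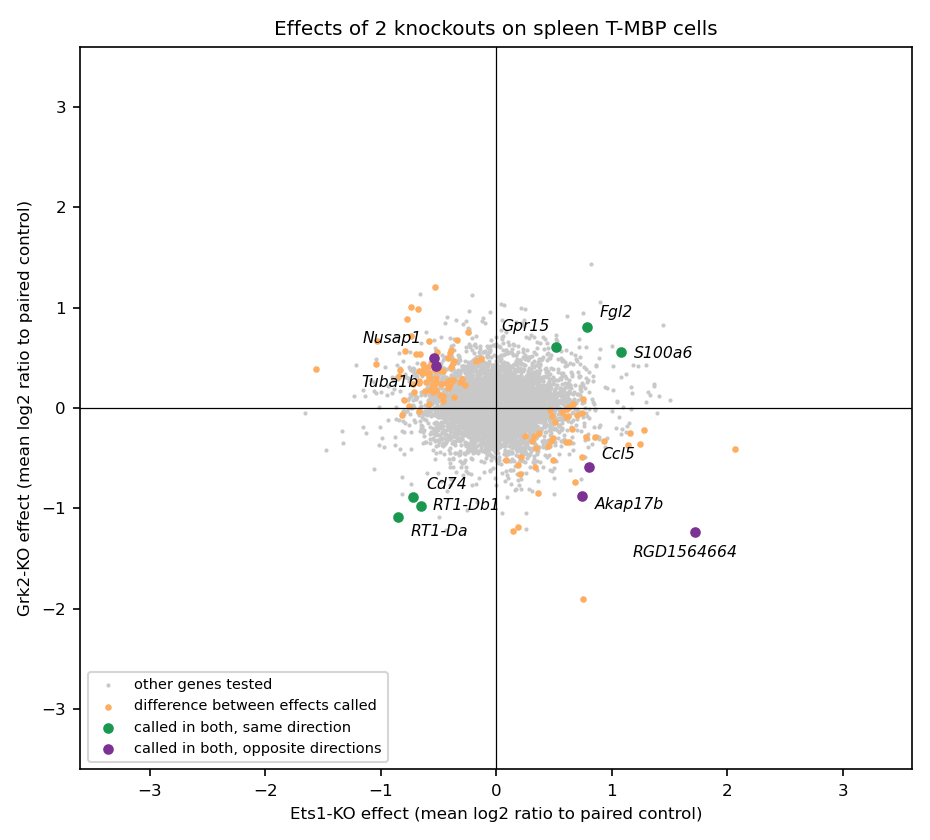
Mean log2 ratio of Ets1-KO to its control (x axis) against that of Grk2-KO to its control (y axis) for 6490 genes, each point a gene. The 6 genes called in both knockouts with the same sign (green) lie in the upper right and lower left, the 5 called with opposite signs (purple) in the other corners, and the 126 genes whose difference was called (orange, behind the 11) lie mostly above left and below right of the centre.

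The genes that fell in both knockouts belong to MHC class II, the complex that presents peptides to CD4+ T cells, which activated rat T cells can express themselves. Of 10 class II genes listed, 5 were expressed enough to be tested. All 5 had effects below 0 in both knockouts and all 5 averages were called. In Ets1-KO 4 of the 5 fell, beside 2.02% of all genes, and in Grk2-KO 4 of the 5 fell, beside 0.216%. The call was shared by 3, where 0.0924% of all genes were called in both with the same sign. The median effect of the 5 was -0.72 in Ets1-KO and -0.97 in Grk2-KO, beside medians of 0.00 and 0.02 over all genes tested. The difference between the knockouts was called for none of the 5 and lay between -0.64 (RT1-Ba, adjusted p = 0.335) and 0.77 (RT1-Bb, adjusted p = 0.396). In bulk RNA, fewer expressing cells and less RNA per cell cannot be told apart.

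Cd74, the invariant chain that guides class II molecules through the cell, was at 595, 534 and 722 in Ets1 controls and 391, 397 and 332 in Ets1-KO. In the Grk2 experiment it was at 251, 216 and 226 in controls and 168, 111 and 103 in Grk2-KO. Each knockout lay below its controls without overlap. The effects were -0.72 (SE 0.12, adjusted p = 4.04e-04) and -0.89 (SE 0.12, adjusted p = 2.72e-05).

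RT1-Db1, a beta chain of the rat DR-type molecule, was at 250.5, 217 and 246 in Ets1 controls and 168, 128 and 158 in Ets1-KO. It was at 102, 67.6 and 58.7 in Grk2 controls and 44.5, 37.3 and 30.9 in Grk2-KO. Again neither pair of groups overlapped, and the effects were -0.66 (SE 0.14, adjusted p = 0.00471) and -0.97 (SE 0.14, adjusted p = 1.02e-04). RT1-Da, the alpha chain, was at 88.6, 74.2 and 36.0 in Ets1 controls and 47.2, 27.3 and 30.0 in Ets1-KO, where the third control lay within the range of the knockout. In the Grk2 experiment the groups stood apart, at 77.0, 61.0 and 46.5 in controls and 45.4, 25.9 and 18.2 in Grk2-KO. Its effects were -0.85 (SE 0.22, adjusted p = 0.0203) and -1.09 (SE 0.22, adjusted p = 0.0136). It lost its call in both knockouts without the replicate block (adjusted p = 0.159 and 0.264), and RT1-Db1 lost its call in Ets1-KO there (adjusted p = 0.0529).

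The other pair of class II chains was called in 1 knockout each. RT1-Ba fell in Ets1-KO, with an effect of -1.01 (SE 0.21, adjusted p = 0.00282) and groups apart, and had a Grk2-KO effect of -0.37 (SE 0.21, adjusted p = 0.792). RT1-Bb was at 44.4, 23.3 and 17.2 in Grk2 controls and 22.7, 7.25 and 7.28 in Grk2-KO, an effect of -1.21 (SE 0.27, adjusted p = 0.0317). Its groups overlapped there, because the first Grk2-KO library lay above the third control and close to the second. Its Ets1-KO effect was -0.44 (SE 0.27, adjusted p = 0.426). The listed class II regulator Ciita and the accessory chains RT1-DMa and RT1-DMb were under the expression minimum, with no library above 4.34.

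Together the 5 tested genes took 0.0739% to 0.0806% of the reads in Ets1 controls and 0.0421% to 0.0532% in Ets1-KO, and 0.0289% to 0.0408% in Grk2 controls and 0.0139% to 0.0257% in Grk2-KO. The share of the knockout was below that of the control of the same number in 6 of 6 comparisons. The summed B cell markers were 12.9 to 109.7 in Ets1 controls and 6.85 to 34.3 in Ets1-KO, and 4.43 to 7.59 in Grk2 controls and 5.24 to 8.28 in Grk2-KO. Of the myeloid markers, Cst3 alone was tested, and the summed list was 85.3 to 131.2 in Ets1 controls and 129.0 to 138 in Ets1-KO, and 99.2 to 112 in Grk2 controls and 116 to 162 in Grk2-KO. The part of these markers in the class II result was not tested. Without the third Ets1 pair all 5 averages were called, whereas 3 were without the second or the third Grk2 pair or without the replicate block.

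The promoters of RT1-Da and RT1-Db1 are shown because class II genes are known for a shared module of an X box, bound by RFX, and a Y box, bound by NF-Y. The stretches are the strand of the gene upstream of the RefSeq start in GRCr8, a later build than the Rnor_6.0 of the counts, and capitals mark TAGCAAC, a core of the X box, and CTGATTGG, the Y box.
RT1-Da, chr20:4515295-4515414, plus strand: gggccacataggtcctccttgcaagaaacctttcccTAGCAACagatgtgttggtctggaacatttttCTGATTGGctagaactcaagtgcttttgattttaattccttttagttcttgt
RT1-Db1, chr20:4560163-4560282, minus strand: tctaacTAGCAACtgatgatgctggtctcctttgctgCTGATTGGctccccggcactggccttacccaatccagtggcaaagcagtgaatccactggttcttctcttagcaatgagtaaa
In windows of 300 bases around the start, searched on both strands, CTGATTGG occurred in 4 of the 5 tested class II genes and TAGCAAC in 3 of 5. The shares among all 27457 promoters of the table were 3.55% and 3.54%. These matches describe the sequence and do not show binding.

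The genes that rose in both knockouts were Fgl2, S100a6 and Gpr15. Fgl2 encodes fibrinogen-like protein 2, a secreted protein with immunosuppressive activity (ENSRNOG00000012881; Rnor_6.0 chromosome 4, 10323606 to 10329241, minus strand). It was at 282, 327 and 244 in Ets1 controls and 503, 489 and 470.2 in Ets1-KO. In the Grk2 experiment it was at 480.2, 564 and 561 in controls and 984, 951 and 871 in Grk2-KO. No knockout library overlapped its controls, and the sizes were alike, at 0.78 (SE 0.10, adjusted p = 1.13e-05) and 0.81 (SE 0.10, adjusted p = 5.15e-06). The difference between the effects was -0.02 with an SE of 0.14.

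S100a6, a small calcium-binding protein, was at 592, 729 and 470.1 in Ets1 controls and 1502, 1193 and 1072 in Ets1-KO. It was at 1049, 1062 and 1079.7 in Grk2 controls and 1719, 1493 and 1494 in Grk2-KO. The groups stood apart in both experiments. The Ets1-KO effect of 1.08 (SE 0.10, adjusted p = 1.52e-08) was larger than the Grk2-KO effect of 0.56 (SE 0.10, adjusted p = 0.00277), with a difference of 0.52 (SE 0.14, adjusted p = 0.0423). The ratios met at their ends, at 1.34, 0.71 and 1.19 for Ets1-KO and 0.71, 0.49 and 0.47 for Grk2-KO. Without the replicate block the call in Grk2-KO and that of the difference were lost (adjusted p = 0.119 and 0.231).

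Gpr15, a homing receptor of T cells for the large intestine, was at 244, 271 and 418 in Ets1 controls and 386, 473 and 443 in Ets1-KO. It was at 108, 177 and 171 in Grk2 controls and 149, 284 and 275 in Grk2-KO. The groups overlapped in both experiments, but 6 of 6 ratios were above 0. The effects were 0.51 (SE 0.12, adjusted p = 0.00759) and 0.60 (SE 0.12, adjusted p = 0.00812). Both calls depended on the pairing of libraries and were lost without the replicate block (adjusted p = 0.215 and 0.491).

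**Figure D2:**
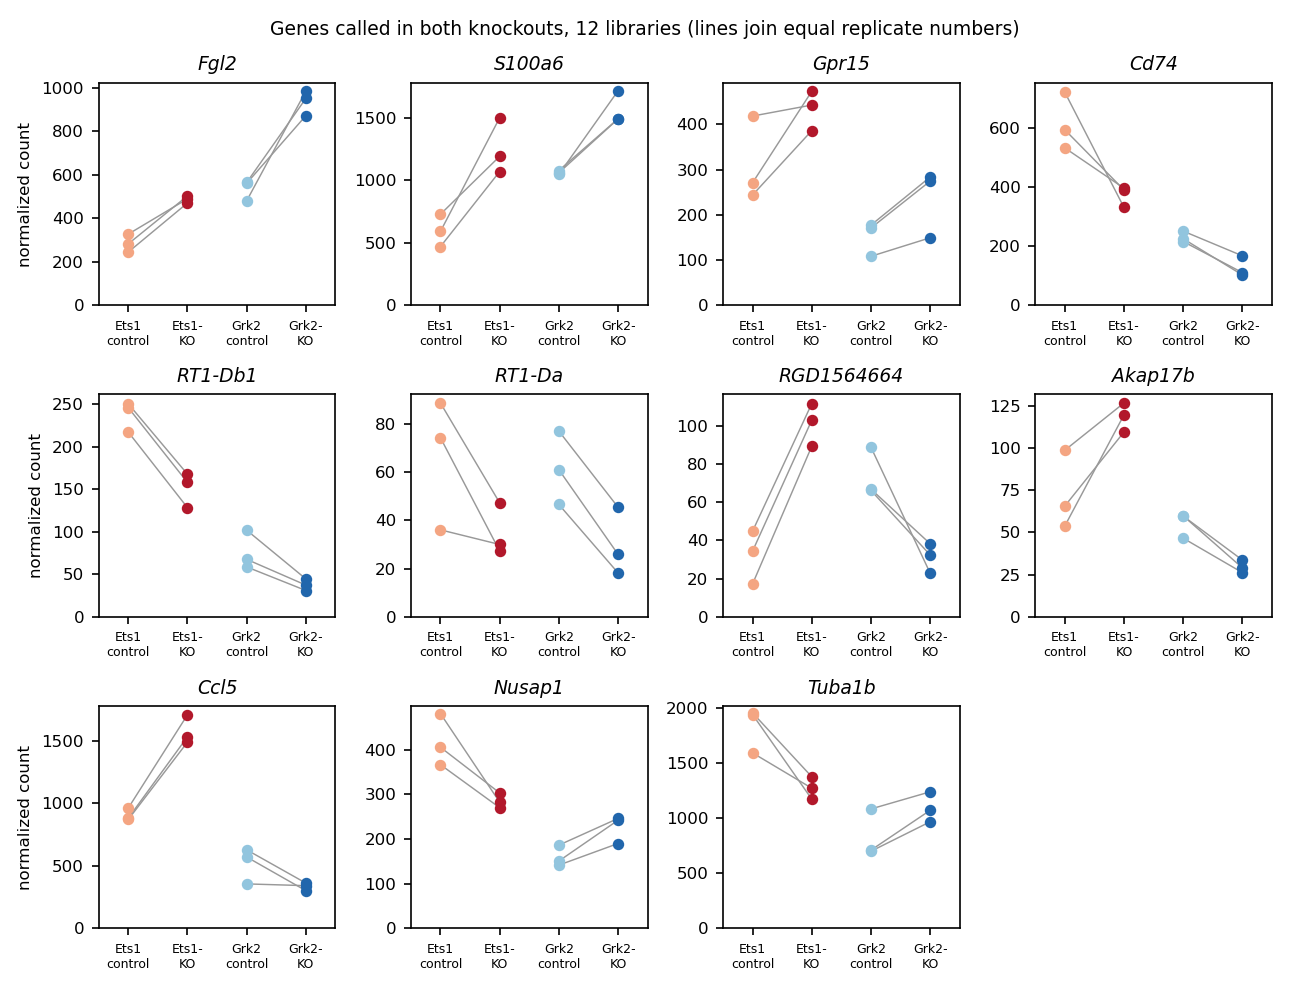
Normalized count (y axis, from 0) of the 11 genes called in both knockouts in each of the 12 libraries, with lines joining the knockout and control library of the same replicate number. Fgl2, S100a6 and Gpr15 rise and Cd74, RT1-Db1 and RT1-Da fall in both experiments, whereas the lines of the other 5 genes slope in opposite directions.

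A wider set was formed of genes whose average was called, whose 6 ratios had the same sign and whose difference was not called. It held 31 genes (0.478%), 24 higher and 7 lower in both knockouts, while 401 genes (6.18%) had 6 ratios of the same sign. Membership does not require a call in either knockout alone. The higher genes included S100a4, the neighbour and relative of S100a6, at 3362, 3919 and 3270.3 in Ets1 controls and 7518, 5642 and 4911 in Ets1-KO, and at 6339.9, 4916 and 4748 in Grk2 controls and 8115, 6335 and 6800.5 in Grk2-KO. Its average effect was 0.59 (SE 0.08, adjusted p = 9.68e-06). Fos, a subunit of the AP-1 transcription factor, had an average of 0.64 (SE 0.10, adjusted p = 3.83e-04) and an Ets1-KO effect of 0.86 (SE 0.14, adjusted p = 4.04e-04). Its Grk2-KO effect of 0.42 (SE 0.14, adjusted p = 0.358) was not called. Arhgap18, a GTPase-activating protein, had an average of 1.13 (SE 0.23, adjusted p = 0.00772), and Gsto1, a glutathione transferase, one of 1.13 (SE 0.24, adjusted p = 0.0123). Arhgap18 was low in the Ets1 controls, at 6.56, 17.2 and 3.13, and its Grk2-KO effect of 0.82 (SE 0.32, adjusted p = 0.489) was not called.

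The averages of Ramp1, a subunit of the receptor for the neuropeptide CGRP, and of Tox, a nuclear factor of chronically stimulated T cells, were 0.82 (SE 0.15, adjusted p = 0.00269) and 0.77 (SE 0.19, adjusted p = 0.0371). Ramp1 was called in Ets1-KO, at 1.23 (SE 0.22, adjusted p = 6.15e-04), but not in Grk2-KO, at 0.41 (SE 0.22, adjusted p = 0.73). Mmp13, a collagenase, had an average of 0.98 (SE 0.23, adjusted p = 0.0296), Ptpn4, a tyrosine phosphatase, one of 0.60 (SE 0.13, adjusted p = 0.0117), Slc28a2, a nucleoside carrier, one of 0.75 (SE 0.17, adjusted p = 0.0234), and Dnajc19, a mitochondrial co-chaperone, one of 0.69 (SE 0.17, adjusted p = 0.0464). Dnajc19 was called in Ets1-KO, at 1.17 (SE 0.25, adjusted p = 0.00358), but not in Grk2-KO, at 0.21 (SE 0.25, adjusted p = 0.925). Counts of Gsto1, Tox and Mmp13 were under 60 in every library. Beside the class II genes, the lower genes were Mns1 with an average of -0.57 (SE 0.13, adjusted p = 0.0218), the metalloprotease Adam19 with -0.43 (SE 0.08, adjusted p = 0.00365), the glucocorticoid-induced Glcci1 with -0.42 (SE 0.09, adjusted p = 0.0117) and the thioredoxin reductase Txnrd1 with -0.37 (SE 0.09, adjusted p = 0.0464). Fitted with no replicate block, the averages of Tox, Mmp13, Slc28a2, Dnajc19, Mns1, Adam19, Glcci1 and Txnrd1 were not called, at an adjusted p of 0.0546 to 0.212.

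The widest gap between the medians of a list in the knockouts was that of mitosis genes. All 28 tested members of a list of 30 mitosis genes had an Ets1-KO effect below 0, between -1.03 and -0.11, and all 28 had a Grk2-KO effect above 0, between 0.14 and 0.71. In Ets1-KO 20 fell, beside 2.02% of all genes, and in Grk2-KO 2 rose, Nusap1 and Ube2c, beside 0.2% of all genes. The difference was called for 21 of the 28, all with the Ets1-KO effect below the Grk2-KO effect, beside 1.22% of all genes. The medians were -0.57 and 0.36, beside 0.00 and 0.02 over all genes. In 17 of the 28 the ratios were 3 below 0 and 3 above 0, a pattern found in 380 of all genes tested (5.86%). In the fit with no replicate block, 13 genes fell in Ets1-KO, none was called in Grk2-KO and the difference was called for 14. The members belong to 1 cellular process and are not independent measurements.

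**Figure D3:**
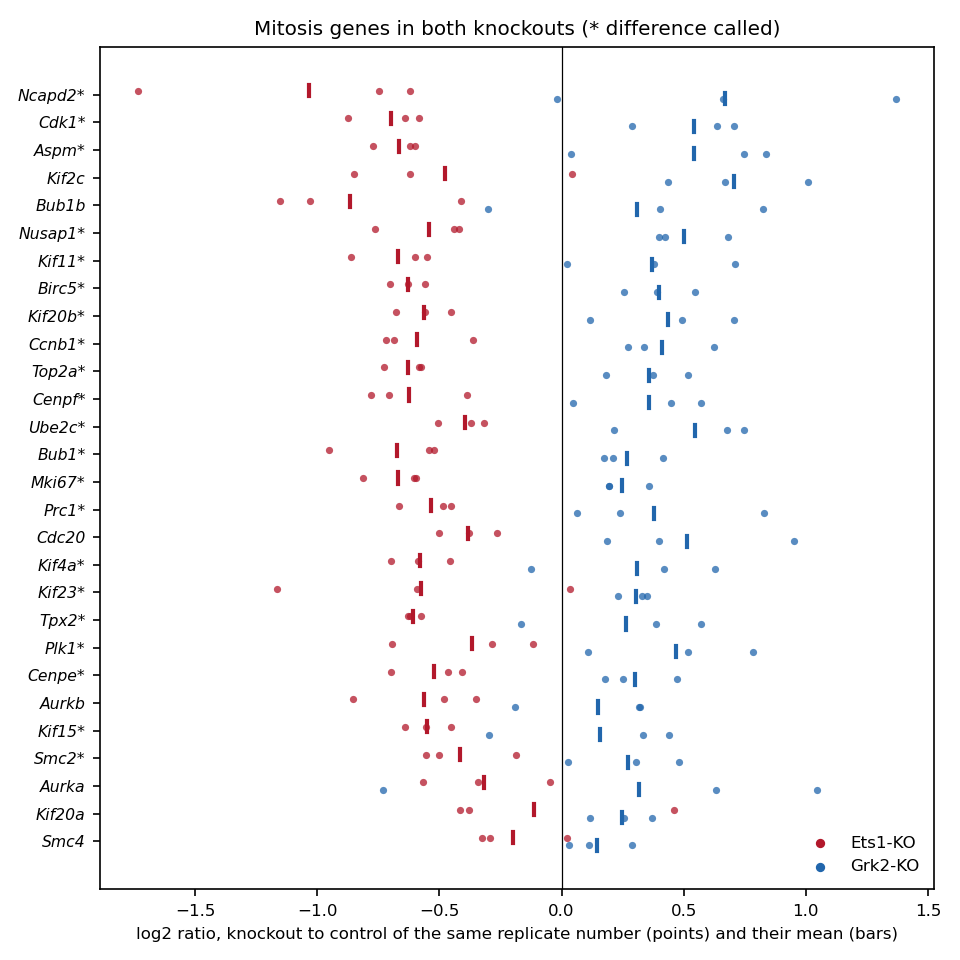
Log2 ratios of knockout to control (x axis) for the 28 tested mitosis genes (rows), with points for the 3 replicates and bars for their mean in Ets1-KO (red) and Grk2-KO (blue). The bars of Ets1-KO lie left of 0 and those of Grk2-KO right of 0 in every row, and asterisks mark the 21 genes whose difference was called.

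Top2a, topoisomerase II alpha, was at 2439, 2203 and 2676 in Ets1 controls and 1473, 1477 and 1788 in Ets1-KO. It was at 1259.5, 1068 and 955 in Grk2 controls and 1428, 1529.5 and 1239 in Grk2-KO. The Ets1 groups stood apart, while the Grk2 groups overlapped with each ratio above 0. The difference was -0.99 (SE 0.13, adjusted p = 1.02e-05).

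Mki67, the proliferation antigen Ki-67, was at 1669, 1325 and 1819 in Ets1 controls and 949.8, 878 and 1195 in Ets1-KO, without overlap. In the Grk2 experiment it was at 660.1, 521 and 520.1 in controls and 755, 668 and 596 in Grk2-KO, with an effect of 0.25 (SE 0.09, adjusted p = 0.371) that was not called. Cdk1, the kinase that drives entry into mitosis, was at 89.7, 108 and 78.3 in Ets1 controls and 59.6, 58.3 and 50.0 in Ets1-KO. It was at 128, 80.9 and 73.9 in Grk2 controls and 156, 133 and 116 in Grk2-KO, and its difference was -1.24 (SE 0.22, adjusted p = 6.91e-04).

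Nusap1 and Tuba1b were called in both knockouts. Nusap1, a spindle microtubule protein, was at 481, 367 and 406 in Ets1 controls and 283, 270.4 and 303 in Ets1-KO. It was at 186, 151 and 142 in Grk2 controls and 246, 242 and 190.1 in Grk2-KO, with groups apart in both, and its effects were -0.54 (SE 0.11, adjusted p = 0.00272) and 0.50 (SE 0.11, adjusted p = 0.0247). Tuba1b, an alpha tubulin with close relatives, was at 1954, 1591 and 1938 in Ets1 controls and 1374, 1271 and 1171 in Ets1-KO. At 1083, 709 and 699 in Grk2 controls and 1238, 1071 and 967 in Grk2-KO, its groups overlapped in the Grk2 experiment. The effects were -0.52 (SE 0.10, adjusted p = 0.00103) and 0.42 (SE 0.10, adjusted p = 0.0321). With no replicate block, both Grk2-KO calls were lost (adjusted p = 0.196 and 0.45), and both were lost without the second Grk2 pair (adjusted p = 0.572 and 0.703).

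The levels of the controls differed between the experiments as well. The 28 mitosis genes took 0.908% to 1.04% of the reads in Ets1 controls and 0.670% to 0.699% in Ets1-KO, but 0.467% to 0.612% in Grk2 controls and 0.586% to 0.687% in Grk2-KO. Knockout libraries of both experiments thus lay between the Grk2 and the Ets1 controls in mean share, at 0.685% ± 0.014 (SD, n = 3) in Ets1-KO and 0.644% ± 0.052 in Grk2-KO, against 0.981% ± 0.067 and 0.526% ± 0.077 in the controls. The experiments were separate, and their difference in control level cannot be told apart from day, transfer or library preparation. In the Grk2 experiment the first control had the highest share of the 3 controls. The ratio of Grk2-KO to control was smallest in that pair, at a fold of 1.07 against 1.38 and 1.25.

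Of 25 tested genes of DNA replication, 12 fell in Ets1-KO, beside 2.02% of all genes, and none was called in Grk2-KO, where 0.416% of all genes were, so that nothing is read from the 0 there. The medians were -0.53 and 0.11. All 25 had a lower effect in Ets1-KO than in Grk2-KO, and the difference was called for 5, beside 1.22% of all genes. Tk1, thymidine kinase, was at 141, 138 and 193 in Ets1 controls and 78.7, 97.4 and 84.9 in Ets1-KO, and at 53.1, 27.7 and 30.4 in Grk2 controls and 58.5, 41.4 and 41.8 in Grk2-KO, with a difference of -1.22 (SE 0.25, adjusted p = 0.00364). The other 4 were the helicase subunits Mcm2 and Mcm7, the polymerase subunit Pola1 and the ribonucleotide reductase subunit Rrm1, with differences of -0.87, -0.78, -0.76 and -0.78. Without the replicate block 3 of the 25 fell in Ets1-KO and no difference was called, and without the first Ets1 pair 1 fell.

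Of the largest negative differences outside these lists, Bicd1, a dynein adaptor, had -1.95 (SE 0.48, adjusted p = 0.022), Arhgef39 -1.74 (SE 0.45, adjusted p = 0.0301), the kinase Melk -1.67 (SE 0.42, adjusted p = 0.0245), the repair gene Brca2 -1.48 (SE 0.39, adjusted p = 0.0343) and the transcription factor Mybl2 -1.36 (SE 0.29, adjusted p = 0.00615). Cdkn2c, an inhibitor of CDK4 and CDK6, had -1.25 (SE 0.33, adjusted p = 0.0343) and Ska3, of the kinetochore, -1.46 (SE 0.40, adjusted p = 0.0479). Calls for Bicd1, Arhgef39, Melk, Brca2 and Ska3 rest on counts under 50, and all 7 were lost without the replicate block (adjusted p = 0.0506 to 0.186).

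The promoters of Top2a and Cdk1 are shown because mitotic genes are known for CCAAT boxes, bound by NF-Y, followed by a cell cycle homology region, bound by the MuvB complex. Capitals mark ATTGG, the CCAAT box as read on the other strand, and TTTGAA or TTCGAA.
Top2a, chr10:84473213-84473332, minus strand: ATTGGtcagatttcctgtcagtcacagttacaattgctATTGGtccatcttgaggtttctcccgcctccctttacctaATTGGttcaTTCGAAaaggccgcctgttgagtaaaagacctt
Cdk1, chr20:19265173-19265292, plus strand: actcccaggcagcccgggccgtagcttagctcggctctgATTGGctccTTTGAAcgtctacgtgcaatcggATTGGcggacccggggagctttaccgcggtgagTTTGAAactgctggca
TTTGAA or TTCGAA occurred, on either strand, in 18 of the 25 tested mitosis genes with a promoter in the table (72.0%), and ATTGG, which is also part of CTGATTGG, in 20 (80.0%). The shares were 19.5% and 37.7% of all promoters, and 14.2% and 39.1% of those of genes tested. Among promoters of the 79 genes with a lower effect in Ets1-KO than in Grk2-KO, 31 of 63 (49.2%) held TTTGAA or TTCGAA. The 79 include 21 genes of the mitosis list, so this share in part recounts that of the list. The ETS site CCGGAAGT occurred in 4 of these 63 (6.35%), and in 11.2% of promoters of genes tested.

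Of 21 tested interferon-stimulated genes, 18 had an Ets1-KO effect above 0 and 5 a Grk2-KO effect above 0, with medians of 0.16 and -0.30. In Ets1-KO 3 rose, Ifi27, Ifi44 and Rtp4, beside 2.47% of all genes, and in Grk2-KO 1 fell, Herc6, beside 0.216%. The difference was called for 5, Herc6, Rtp4, Isg15, Gbp4 and Ifi44, all with the higher effect in Ets1-KO, beside 0.724% of all genes. The other 16 were not called, among them Mx1 and Irf1 with differences of 0.39 and -0.14.

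Herc6, the rodent enzyme that attaches ISG15 to proteins, was at 7.66, 8.61 and 9.40 in Ets1 controls and 15.1, 9.30 and 23.7 in Ets1-KO. It was at 30.4, 52.1 and 55.7 in Grk2 controls and 7.86, 6.21 and 27.3 in Grk2-KO, below all controls. Its difference was 2.65 (SE 0.50, adjusted p = 0.00162), from low counts. Isg15, the ubiquitin-like modifier itself, was at 82.0, 82.8 and 72.1 in Ets1 controls and 104, 100.5 and 95.5 in Ets1-KO. It was at 108, 139.7 and 177 in Grk2 controls and 77.7, 84.9 and 119 in Grk2-KO, where the groups overlapped. Its difference was 0.92 (SE 0.20, adjusted p = 0.00718).

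Rtp4, an interferon-induced receptor chaperone, was at 71.1, 101 and 81.5 in Ets1 controls and 119.8, 125 and 111 in Ets1-KO. It was at 139, 176 and 244 in Grk2 controls and 129, 104 and 152 in Grk2-KO. Its difference was 1.01 (SE 0.20, adjusted p = 0.00348), that of Ifi44 0.83 (SE 0.18, adjusted p = 0.00704) and that of Gbp4, an interferon-induced GTPase, 0.85 (SE 0.23, adjusted p = 0.0489). Fitted with no replicate block, the difference of Herc6 alone was still called among the 5 (adjusted p = 0.0208), and leaving out the second or the third Grk2 pair likewise left 1 call.

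The promoter of Ifi44 is shown with the core of an interferon-stimulated response element in capitals. The core is GAAA, any 2 bases and GAAA, which lies here on the reverse strand.
Ifi44, chr2:243303841-243303960, minus strand: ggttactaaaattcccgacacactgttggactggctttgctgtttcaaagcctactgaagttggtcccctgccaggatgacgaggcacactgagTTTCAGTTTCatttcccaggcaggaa
The core occurred in 9 of 15 tested interferon-stimulated genes with a promoter in the table (60.0%), Gbp4 and Ifi44 among them and Herc6 not, and in 3.77% of all promoters.

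**Figure D4:**
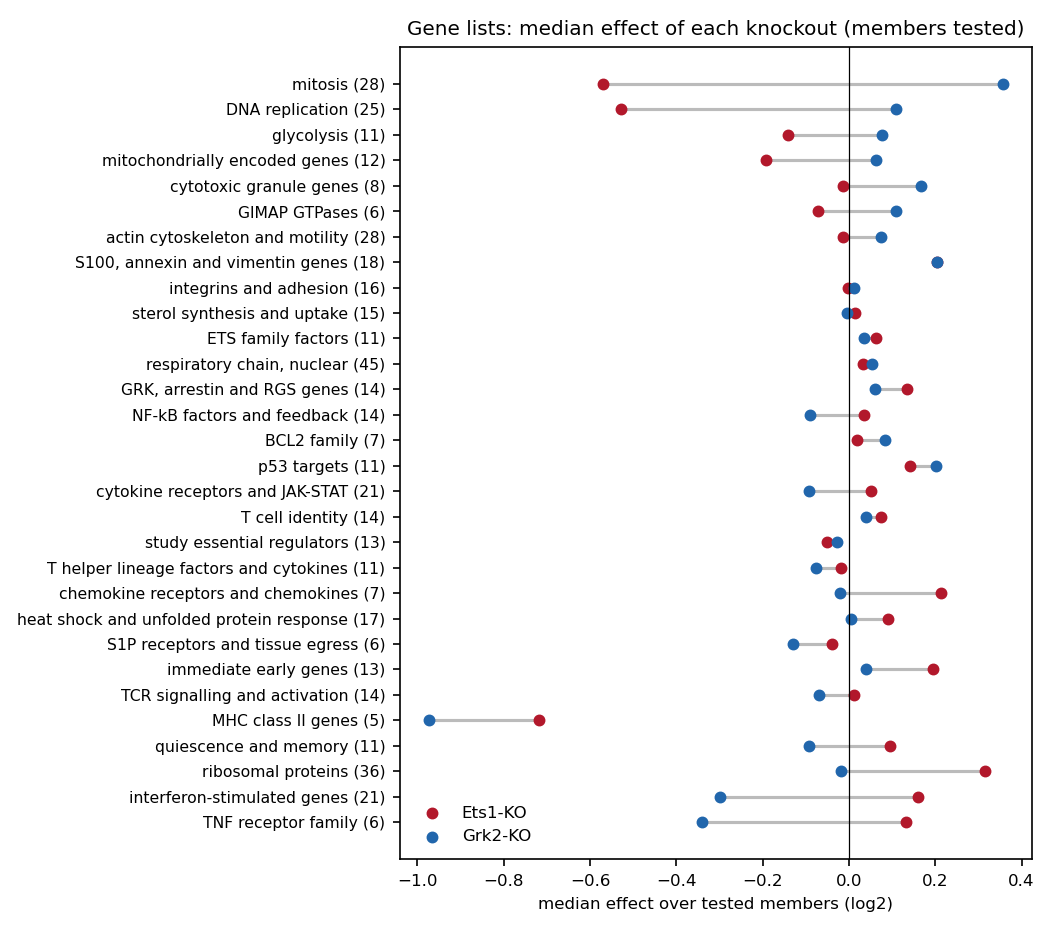
Median effect over the tested members (x axis, log2) of each gene list with at least 5 tested genes, in Ets1-KO (red) and Grk2-KO (blue), with the number tested in brackets. Mitosis has the widest gap, at -0.57 and 0.36, MHC class II has both medians on the left at -0.72 and -0.97, and the points of the S100, annexin and vimentin list coincide at 0.20.

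Of 7 tested chemokine genes and receptors 2 rose in Ets1-KO, beside 2.47% of all genes, and 2 fell in Grk2-KO, beside 0.216%. Ccl5, a chemokine that attracts T cells and monocytes, was at 882, 963 and 871 in Ets1 controls and 1534, 1709 and 1491 in Ets1-KO, without overlap. It was at 356, 571 and 628 in Grk2 controls and 341, 301 and 362 in Grk2-KO, where the first pair hardly differed and the groups overlapped. It rose by 0.80 (SE 0.11, adjusted p = 2.90e-05) in Ets1-KO and its Grk2-KO effect was -0.59 (SE 0.11, adjusted p = 0.00435). The latter call was lost without the second Grk2 pair (adjusted p = 0.463) and without the replicate block (adjusted p = 0.12), while the difference of 1.39 (SE 0.16, adjusted p = 9.16e-07) kept its call under the latter (adjusted p = 4.52e-04).

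Ccr3, a G protein-coupled receptor for eotaxins and for CCL5, was at 207, 269 and 281 in Grk2 controls and 96.9, 120.1 and 114 in Grk2-KO, without overlap. In the Ets1 experiment the groups overlapped, at 117, 167 and 114 in controls and 141, 162 and 144 in Ets1-KO. The Grk2-KO effect was -1.18 (SE 0.12, adjusted p = 3.95e-07), the Ets1-KO effect 0.19 (SE 0.12, adjusted p = 0.469) and the difference 1.37 (SE 0.18, adjusted p = 1.02e-05).

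Ccr6, the receptor for CCL20, was at 18.6, 19.4 and 9.40 in Ets1 controls and 23.3, 57.7 and 38.1 in Ets1-KO. It was at 75.9, 72.1 and 82.0 in Grk2 controls and 51.5, 60.1 and 68.2 in Grk2-KO. The Ets1-KO effect was 1.25 (SE 0.24, adjusted p = 0.00181) and the difference 1.61 (SE 0.34, adjusted p = 0.00696). Cxcr4, the receptor for CXCL12, was at 139, 137 and 107 in Ets1 controls and 97.2, 96.8 and 93.7 in Ets1-KO. It was at 229.8, 265 and 186 in Grk2 controls and 349, 315 and 240.1 in Grk2-KO. Neither effect was called, but the difference was, at -0.80 (SE 0.17, adjusted p = 0.00704), though not without the replicate block (adjusted p = 0.08). Cxcr3 and Cxcr6 were not called in either effect or in the difference.

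S1pr1, the receptor through which lymphocytes follow sphingosine-1-phosphate out of tissue and a substrate of GRK2, was not called. It was at 271, 345 and 323 in Ets1 controls and 273, 313 and 318 in Ets1-KO, and at 324, 336 and 321 in Grk2 controls and 357, 341 and 303 in Grk2-KO. The effects were -0.05 (SE 0.10, adjusted p = 0.853) and 0.03 (SE 0.10, adjusted p = 0.988). Among 6 tested genes of sphingosine-1-phosphate signalling and egress, the difference was called for Sgpl1 alone, the lyase that degrades the lipid, beside 1.94% of all genes. Sgpl1 was at 113, 130.2 and 132 in Ets1 controls and 181, 176 and 163 in Ets1-KO, and at 130.1, 97.5 and 114 in Grk2 controls and 94.3, 83.9 and 92.8 in Grk2-KO, with groups apart in both and a difference of 0.80 (SE 0.19, adjusted p = 0.017), or an adjusted p of 0.0539 without the replicate block. Of 14 tested GRK, arrestin and RGS genes, Grk2 was the only one called in any of these tests.

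Il4r, the receptor chain for interleukin 4, was at 110.5, 133 and 132 in Ets1 controls and 244, 238 and 200.4 in Ets1-KO. It was at 225, 257 and 309 in Grk2 controls and 188, 218 and 239 in Grk2-KO. It rose by 0.86 (SE 0.12, adjusted p = 2.90e-05) in Ets1-KO, and the difference was 1.15 (SE 0.17, adjusted p = 5.18e-05). RGD1564664, a gene without an assigned name, was called in both knockouts. It was at 44.8, 34.4 and 17.2 in Ets1 controls and 112, 103 and 89.3 in Ets1-KO, and at 66.1, 88.7 and 66.8 in Grk2 controls and 32.3, 22.8 and 38.2 in Grk2-KO. The groups stood apart in both experiments, the effects were 1.72 (SE 0.22, adjusted p = 1.13e-05) and -1.24 (SE 0.22, adjusted p = 0.00263), and its difference of 2.96 (SE 0.31, adjusted p = 3.67e-07) was the largest called in the fit.

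Akap17b, named as a protein kinase A anchoring protein, was at 65.6, 53.8 and 98.7 in Ets1 controls and 109.6, 119.7 and 127 in Ets1-KO, and at 46.6, 59.9 and 59.7 in Grk2 controls and 26.2, 29.0 and 33.7 in Grk2-KO, again with groups apart. The effects were 0.74 (SE 0.18, adjusted p = 0.0136) and -0.88 (SE 0.18, adjusted p = 0.0158), the latter not called without the replicate block (adjusted p = 0.117). The Grk2-KO call was lost without the second Grk2 pair for RGD1564664 and Akap17b alike (adjusted p = 0.331 for each). Mlkl, the effector of necroptosis, was at 3.28, 5.38 and 4.70 in Ets1 controls and 21.9, 16.1 and 28.1 in Ets1-KO. It was at 19.5, 21.1 and 20.2 in Grk2 controls and 15.7, 12.4 and 17.3 in Grk2-KO. Its difference of 2.47 (SE 0.49, adjusted p = 0.00346) rests on few reads in the shallow Ets1 controls. Other large positive differences were those of the Mediator subunit Med7 at 1.50 (SE 0.41, adjusted p = 0.0497), the mitochondrial import protein Timm8a1 at 1.50 (SE 0.38, adjusted p = 0.0249), Ncdn at 1.42 (SE 0.37, adjusted p = 0.0305), the peroxisomal enzyme Phyh at 1.41 (SE 0.32, adjusted p = 0.0106) and the progestin receptor Paqr7 at 1.26 (SE 0.30, adjusted p = 0.019). These 5 were lost without the replicate block (adjusted p = 0.0506 to 0.169).

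The list of S100, annexin and vimentin genes also holds Lgals1, Lgals3, Tagln2, Crip1 and Ahnak, and 18 of its members were tested. In Ets1-KO 2 of the 18 rose, S100a6 and S100a4, beside 2.47% of all genes. In Grk2-KO 3 rose, S100a6, Lgals3 and Vim, beside 0.2%. The medians were 0.20 in both, and the difference was called for S100a6, Vim and Lgals3, beside 1.94% of all genes. Vim, the intermediate filament vimentin, was at 5067, 4619 and 4976 in Grk2 controls and 6979.5, 6612 and 6921 in Grk2-KO, without overlap. In the Ets1 experiment it was at 7096, 6877 and 9551 in controls and 6592, 7164 and 7480.3 in Ets1-KO. The Grk2-KO effect was 0.48 (SE 0.10, adjusted p = 0.0164), the Ets1-KO effect -0.13 (SE 0.10, adjusted p = 0.543) and the difference -0.62 (SE 0.14, adjusted p = 0.0138). In the fit with no replicate block, neither the Grk2-KO effect nor the difference was called (adjusted p = 0.138 and 0.0847).

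Lgals3, the lectin galectin-3, was at 229, 276 and 265 in Grk2 controls and 441, 397 and 464 in Grk2-KO, without overlap. It was at 610.4, 719.6 and 649 in Ets1 controls and 616, 572 and 486 in Ets1-KO. The Grk2-KO effect was 0.76 (SE 0.10, adjusted p = 2.72e-05) and the difference -1.0 (SE 0.15, adjusted p = 5.18e-05). Ctsw, a protease of cytotoxic cells, rose in Grk2-KO by 0.68 (SE 0.15, adjusted p = 0.0188) and differed by -1.02 (SE 0.21, adjusted p = 0.0035). The surface receptor Cd93 had effects of -0.73 (SE 0.24, adjusted p = 0.0777) and 1.01 (SE 0.24, adjusted p = 0.048) and a difference of -1.75 (SE 0.34, adjusted p = 0.0027), and the collagen-binding integrin chain Itga1 a difference of -1.66 (SE 0.38, adjusted p = 0.0113), both at counts under 90. The Grk2-KO calls of Ctsw and Cd93 were lost without the replicate block (adjusted p = 0.12 and 0.138). Itgb1, the beta chain shared by Itga1 and the alpha 4 integrin, had effects of 0.02 (SE 0.09, adjusted p = 0.946) and 0.36 (SE 0.09, adjusted p = 0.0681).

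Of 36 tested ribosomal protein genes 9 rose in Ets1-KO, beside 2.47% of all genes, and none was called in Grk2-KO, a 0 from which nothing is read beside the 0.416% of all genes called there. The medians were 0.31 and -0.02. The difference was called for 3, Rpl24, Rps3 and a copy of Rps27a (ENSRNOG00000034246), beside 1.94% of all genes. Ribosomal proteins have many near-identical copies over which reads can be split. The differences of Rps3 and Rps27a were not called without the replicate block (adjusted p = 0.0508 and 0.0664). Rpl24 was at 750.4, 841 and 652 in Ets1 controls and 1259, 1091 and 1101 in Ets1-KO, and at 2119, 2126 and 2103 in Grk2 controls and 2183, 1910.5 and 1932 in Grk2-KO, with a difference of 0.70 (SE 0.13, adjusted p = 0.0015). Without the first Ets1 pair 2 ribosomal protein genes were called in Ets1-KO, against 9 to 13 without any of the other pairs. Of 13 immediate early genes, which follow recent stimulation, 4 rose in Ets1-KO, Fos, Fosb, Junb and Egr1, beside 2.47% of all genes. None was called in Grk2-KO, where 0.416% of all genes were, so nothing is read from that 0. The call of Egr1, at an adjusted p of 0.0495, was lost without the replicate block (adjusted p = 0.175). The difference was called for Egr1, Fosb and Junb, beside 1.94% of all genes. The values were 1.23 (SE 0.32, adjusted p = 0.0287), 0.63 (SE 0.16, adjusted p = 0.0295) and 0.69 (SE 0.17, adjusted p = 0.0217). The difference of Fos was 0.45 (SE 0.20, adjusted p = 0.336). Fos itself was at 278, 232 and 248 in Ets1 controls and 472, 438 and 468 in Ets1-KO, without overlap, but at 19.5, 29.9 and 21.2 in Grk2 controls and 23.6, 39.4 and 32.7 in Grk2-KO. With no replicate block, none of the 3 differences was called (adjusted p = 0.117 to 0.169).

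A difference was called for 2 of 12 mitochondrially encoded genes, beside 1.94% of all genes. They were Mt-atp8 at -0.74 (SE 0.20, adjusted p = 0.0398) and Mt-nd1 at -0.50 (SE 0.13, adjusted p = 0.0392). Neither was called without the replicate block (adjusted p = 0.286 and 0.163). Cox7c, a nuclear gene of the respiratory chain, had an average of 0.35 (SE 0.08, adjusted p = 0.0271) with effects of 0.62 and 0.07, and the average was not called without the replicate block (adjusted p = 0.188). In lists on T cell receptor signalling, quiescence, T helper factors, cytotoxic granules, actin, cytokine receptors, NF-kB, inhibitory receptors, heat shock and the nuclear respiratory chain, lists of 3 to 45 tested genes, 1 to 3 members each were called in Ets1-KO, where 4.48% of all genes were. Among these were 2 of 3 genes of the inhibitory receptor list, Vsir and Ctla4, and 2 of 11 T helper genes, Maf and Ccr6. Each was higher, beside 2.47% of all genes. The third gene of the inhibitory receptor list, Tox, encodes a nuclear factor. Ctla4 is counted on the T cell receptor signalling list as well, and Ccr6 was among the chemokine genes above. In the lists from T cell receptor signalling to the nuclear respiratory chain, Ctsw was the only member called in Grk2-KO, where 0.416% of all genes were. In the longer lists, counts of this size can lie near the share over all genes. No member was called in either effect, the difference or the average among 14 tested T cell identity genes, 11 ETS family genes, 11 p53 targets, 11 glycolysis genes, 15 sterol genes, 7 BCL2 family genes, 6 GIMAP genes and 6 TNF receptor family genes.

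A wider set of opposite genes, with a called difference and 3 ratios on either side of 0, held 80 genes (1.23%). The Ets1-KO effect was the higher in 27 and the lower in 53, and 16 of the 53 were on the mitosis list and 2 on that of DNA replication. On the other side 4 of the 27 were on the list of interferon-stimulated genes. Of all 6490 genes tested, these lists held 28, 25 and 21.

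**Figure D5:**
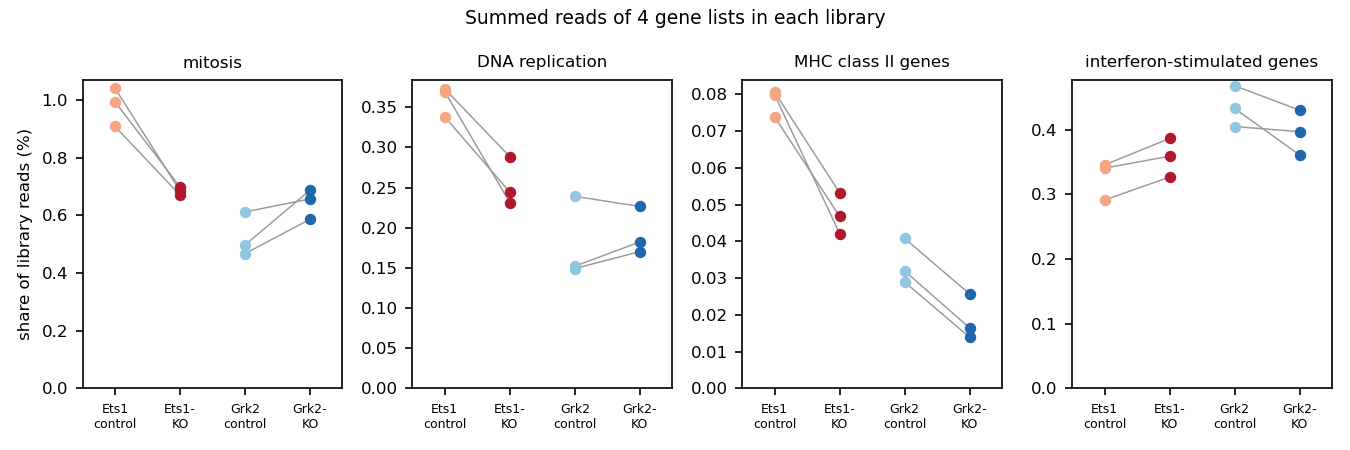
Share of each library's reads (y axis, percent, from 0) in the tested genes of 4 lists, with lines joining the knockout and control library of the same replicate number. The mitosis share falls from 0.908% to 1.04% in Ets1 controls to 0.670% to 0.699% in Ets1-KO and lies at 0.467% to 0.612% in Grk2 controls and 0.586% to 0.687% in Grk2-KO, while the MHC class II share falls in all 6 comparisons.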

How the data were processed

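RNA of sorted T-MBP cells was measured with a 3′ mRNA library kit. Per the study's methods and the submitters' processing notes, the authors aligned single-end reads to Rnor_6.0 with STAR 2.7.2b, counted genes with HTSeq 1.0.0 and scaled the counts with DESeq2 2.11.40.7. The values deposited by the authors are a signal, normalized counts per gene, in 1 table for each experiment. Every positive value was a whole multiple of that of 1 read (100% of values, tolerance 0.01 of a read), so reads and depth could be recovered. The tables were scaled separately, so levels were compared across them only as shares of reads. Tables of the authors' own comparisons, which hold fold changes and p-values, and the tables of other tissues and experiments were not used here.

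The 6 log2 ratios (pseudocount 1) of genes with a mean of at least 10 in both tables were fitted in limma 3.58.1 (R 4.3.3) as 1 model with a mean for each knockout and a variance trend on mean level (residual df 4, prior df 28.9). It gave both effects, their difference (Ets1 minus Grk2) and their average. The script was tested on simulated data. Alternatives used edgeR 4.0.16 and DESeq2 1.42.0 on recovered reads, other scalings, filters, pseudocounts and omitted pairs.

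Pairing follows the methods, which describe transfer of mixed knockout and control cells; the labels do not tie libraries to animals. Deviations of libraries with the same number correlated at 0.014 to 0.174 (3 of 6 over 0.1), and of other numbers at -0.143 to 0.0715.

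Genes named are Ets1, Grk2, S1pr1, Ccr3, Vim, Itgb1, all genes called in both effects, the 10 with the largest called difference or average in each direction among those with ratios apart or of 1 sign, and list members called in the difference or the average. Ifi27, Mx1, Irf1, Ube2c, Cxcr3 and Cxcr6 were added after their values were seen. The genes and lists were chosen with earlier results of these data known. Promoters are from RefSeq (GRCr8) and matched 5157 of the 6490 genes by symbol.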

Additional observations from a re-analysis of the deposited data

How the results depend on the processing

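The count of called genes rests on how the variance is shared between genes and on single pairs of libraries. The pairing of libraries by number was not shown by the libraries themselves, since deviations of the same number correlated above 0.1 in 3 of 6 cases. Without the replicate block, as 4 group means, 136 genes were called in Ets1-KO, 7 in Grk2-KO, 43 in the difference and 18 in the average, with 2 moved alike, 1 in opposite directions, 14 mitosis genes, 3 MHC class II genes, 1 interferon-stimulated gene and 6 ribosomal protein genes. Without the variance trend the counts were 3 in Ets1-KO and 0 for each of the others, and 964, 447, 749 and 707 genes had an unadjusted p under 0.05 in Ets1-KO, Grk2-KO, the difference and the average. With DESeq2 on recovered reads they were 107, 15, 54 and 17, with 6 moved alike, 3 in opposite directions, 15 mitosis, 2 class II, 2 interferon-stimulated and 8 ribosomal protein genes. With edgeR they were 328, 28, 140 and 64. With each knockout fitted alone they were 90 in Ets1-KO and 51 in Grk2-KO, with 5 alike, 6 opposite and 6 ribosomal protein genes. At a mean of at least 50, 2 class II genes remained for testing and both were called. Leaving out a pair gave 56 to 293 genes in Ets1-KO (56 without the first Ets1 pair), 7 to 45 in Grk2-KO (7 without the second Grk2 pair), 39 to 192 in the difference and 17 to 122 in the average. It gave 3 to 7 alike and 0 to 6 opposite, with 0 without the second and 1 without the third Grk2 pair. The mitosis genes called in the difference numbered 13 to 23, the class II genes 3 to 5, the interferon-stimulated genes 1 to 6 and the ribosomal protein genes 2 to 13. Of the 11 genes called in both, Fgl2 and Cd74 kept both calls under all 17 alternatives other than that without the variance trend. RT1-Db1 kept them under 15 of 17, RGD1564664 under 15 of 16, Ccl5 under 14, S100a6 under 13, Tuba1b under 12, Nusap1 under 11 and Gpr15 under 10 of 17, and RT1-Da and Akap17b under 8 of 15. Scaling by quantiles, by the upper quartile or by TMM kept the sign of both medians of the mitosis list, with -0.56 and 0.33 to 0.34, and moved the share of called differences with the higher effect in Ets1-KO from 37.3% to 45.9%, 45.0% and 42.9%, and the share of Grk2-KO calls that were higher from 48.1% to 33.3%, 40.7% and 38.5%. Uncalled effects near 0 changed sign in 4 cases when a pair was left out. The Ets1-KO effect on Ets1 ranged from -0.141 to 0.00856, its difference from -0.0147 to 0.148, the Ets1-KO effect on Itgb1 from -0.0214 to 0.0654 and the Grk2-KO effect on S1pr1 from -0.0310 to 0.0802. At 898092 to 2248258 reads a library, depth limits what can be seen in genes with counts near the minimum of 10.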
